A study of Mus musculus with 14 samples.

Results

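Neutrophils are drawn into the inflamed colon by a small set of secreted proteins, and 8 genes of that system were followed here across 14 arrays of mouse colon RNA. They are 5 chemokine genes whose products bind the receptor Cxcr2 (Cxcl1, Cxcl2, Cxcl3, Cxcl5 and Ppbp), the gene of that receptor, and the genes of the colony-stimulating factors Csf2 and Csf3. The members were taken by name: every array feature whose transcript accession maps to one of the 8 genes was used, which gave 9 features for 8 of the 19096 genes named on the array. The genes were chosen with the DSS response and the genotype difference on DSS already known, so those comparisons are given as a description of the members and support nothing by themselves. Whether the comparison between genotypes on plain water was also known at the choice is not recorded.

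All mice were female C57BL/6 animals of 4 to 6 months on chow. Flox mice (GR fl/fl) carry loxP sites in Nr3c1, the gene of the glucocorticoid receptor (GR), and were the controls. GR iKO mice carry the same alleles together with Villin-cre, which is constitutively active in the intestinal epithelium, so immune, stromal and vascular cells of the colon keep the receptor. Each genotype received plain drinking water or 2.5% dextran sodium sulfate (DSS), a chemical that injures the colon lining, for 7 days. The groups held 4 Flox water, 3 Flox DSS, 4 GR iKO water and 3 GR iKO DSS arrays, each made from total RNA of whole colon.

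Cxcr2 is a receptor on the surface of neutrophils, and the chemokines that bind it are made by epithelial cells, fibroblasts, macrophages and neutrophils when tissue is damaged. They share a glutamate-leucine-arginine motif ahead of the first cysteines, and they guide neutrophils out of the blood along a gradient. Csf3 drives the production of neutrophils in the bone marrow, and Csf2 prolongs the life of neutrophils and activates macrophages. The promoters of many of these genes are bound by NF-kB, and glucocorticoids are known to lower the transcription of several of them. Because whole colon was assayed, more cells of a type and more RNA per cell cannot be told apart.

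Levels are log2 scanner signals minus the 75th percentile of the same array, so a value of 0 is a signal as bright as that percentile and a step of 1 is a doubling. Values of different features are not comparable with each other. A signal is called well above background by the scanner software, and a feature was tested when this held on at least 3 of the 14 arrays. All 8 members passed, but 6 of them (Cxcl2, Cxcl3, Ppbp, Cxcr2, Csf2 and Csf3) were well above background on none of the 8 water arrays and passed only through the DSS arrays. These 6 had to differ between some groups, and for them the DSS change is given as a lower bound, the DSS mean over a raised water mean. Each water value under the dimmest signal still well above background on its array was raised to that floor. Some Ppbp water values lay above the floor without being well above background and enter as read, so the floor is no strict limit. Where a DSS array was itself not well above background, its value enters the DSS mean as read, and the bound is not strict. The bounds hold for the scanner's own background correction, and normexp correction, which models signal over local background and adds an offset before the log, was the alternative. A gene was called when its Benjamini-Hochberg adjusted p over 29523 tested features was under 0.05 in limma.

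The 75th percentile ranged from 262 to 1003 intensity units, and between 62.6% and 71.3% of features were well above background. That percentile was 430, 675 and 262 on Flox DSS, 713, 559 and 493 on GR iKO DSS, and 707 to 1003 on water. Brightness thus differed between groups, and its part in the differences of dim members was not tested. Arrays of one group correlated at 0.958 to 0.989 over tested features. The brightest Nr3c1 feature lay at 1.19 ± 0.14 (SD, n = 4) in Flox water and 0.39 ± 0.16 (n = 4) in GR iKO water, and at 1.27 ± 0.20 (n = 3) and 0.43 ± 0.05 (n = 3) on DSS. It was lower in every GR iKO array than in every Flox array of the same treatment, with a difference of -0.80 on water (adjusted p = 0.0968, limma) and -0.83 on DSS (adjusted p = 0.00718, limma). Another Nr3c1 feature gave -0.88 on water and -0.81 on DSS, without overlap. A dimmer feature gave -1.07 on water and -0.40 on DSS, where the genotypes overlapped. A further feature gave -0.84 on water, with overlap, and -0.86 on DSS. Neither of the latter features was called between genotypes. Whether any of these features lies in the deleted part of the gene is not given. Epithelial and smooth muscle markers of the labelled tissue were well above background. The labels give separate samples but no animal numbers, so p-values measure the spread between these samples.

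The promoters of Cxcl1, Cxcl2 and Cxcl3, which lie near each other on chromosome 5, are shown with that of Csf2, because the former share a short motif that the latter lacks. The 250 bases before the annotated start are printed 5′ to 3′ on the gene's strand from RefSeq (mouse GRCm38.p6), which held entries for 6 of the 8 members. Capitals mark matches to GGNNTTTCC, a short form of the NF-kB site, on either strand.
Cxcl1, chr5:90890995-90891244, plus strand: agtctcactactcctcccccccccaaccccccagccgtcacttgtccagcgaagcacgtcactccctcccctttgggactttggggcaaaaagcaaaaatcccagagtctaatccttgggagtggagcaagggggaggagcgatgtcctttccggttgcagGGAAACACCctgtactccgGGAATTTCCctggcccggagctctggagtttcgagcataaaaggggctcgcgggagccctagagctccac
Cxcl2, chr5:90903649-90903898, plus strand: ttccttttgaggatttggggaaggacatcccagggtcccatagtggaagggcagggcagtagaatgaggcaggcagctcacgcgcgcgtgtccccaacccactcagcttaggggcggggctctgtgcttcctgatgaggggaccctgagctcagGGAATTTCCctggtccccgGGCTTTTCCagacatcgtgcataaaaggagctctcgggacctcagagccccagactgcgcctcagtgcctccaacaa
Cxcl3, chr5:90785851-90786100, plus strand: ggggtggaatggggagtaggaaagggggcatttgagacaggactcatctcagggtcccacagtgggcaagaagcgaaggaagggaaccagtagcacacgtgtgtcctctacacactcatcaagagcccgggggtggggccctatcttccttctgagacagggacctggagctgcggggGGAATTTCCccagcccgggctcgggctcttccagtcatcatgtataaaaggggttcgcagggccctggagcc
Csf2, chr11:54249900-54250149, minus strand: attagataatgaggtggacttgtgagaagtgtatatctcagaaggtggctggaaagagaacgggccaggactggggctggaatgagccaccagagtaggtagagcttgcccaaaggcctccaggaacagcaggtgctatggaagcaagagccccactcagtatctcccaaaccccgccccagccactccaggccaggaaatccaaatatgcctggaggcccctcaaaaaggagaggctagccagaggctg

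Cxcl1 held 2 matches, Cxcl2 held 2 and Cxcl3 held 1, and the match GGAATTTCC ended 62, 88 and 64 bases before the start in that order. The second match of Cxcl2 was GGCTTTTCC, and the other match of Cxcl1 was on the opposite strand. No match stood in the windows of Csf2, Ppbp or Cxcr2. Among all 32851 promoter windows in the same table, 4.93% held these letters. The letters TGANTCA of AP-1 stood in 1 member window (Ppbp) against 6.75% of all windows, and TTGCNNAA of C/EBP in 1 (Csf2) against 9.56%. AGAACA, one arm of the glucocorticoid receptor site, stood in 1 (Cxcr2) against 16.1%, and none of these letters overlapped another. A match is a run of letters and was not tested for binding.

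**Figure D1:**
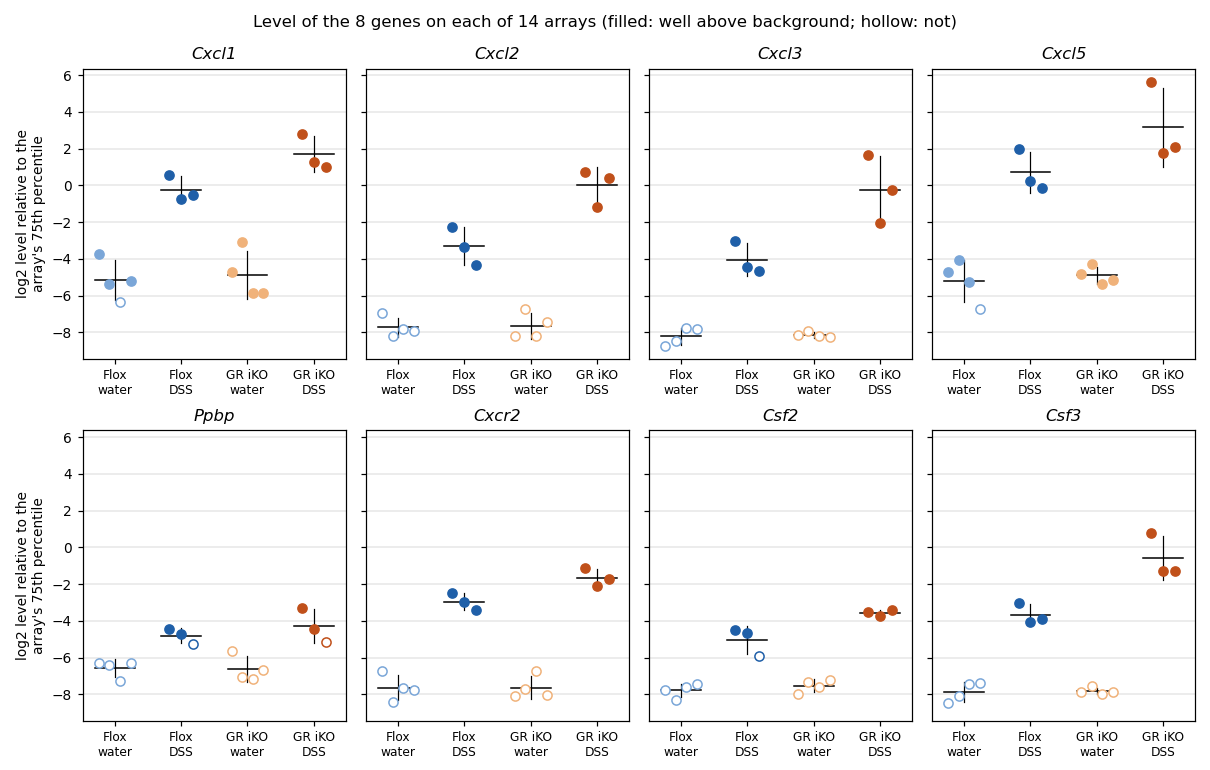
Log2 level of the 8 genes above or below each array's 75th percentile (1 panel each) in Flox water (n = 4), Flox DSS (n = 3), GR iKO water (n = 4) and GR iKO DSS (n = 3). Each circle is 1 array, filled where the signal was well above background and hollow where it was not, the horizontal line is the group mean and the vertical line its SD. DSS arrays lie above the water arrays in every panel, and GR iKO DSS lies above Flox DSS without overlap in 6 panels, all but Cxcl5 and Ppbp.

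Cxcl1 encodes the chemokine first known as KC, an early product of injured epithelium and stroma. Its level was -3.72, -5.34, -6.37 and -5.18 on the Flox water arrays and -4.73, -3.06, -5.83 and -5.84 on the GR iKO water arrays, with 1 Flox value (-6.37) not well above background. On DSS it was 0.59, -0.73 and -0.54 in Flox and 2.82, 1.27 and 1.00 in GR iKO. Every DSS array lay above every water array, and the lowest GR iKO DSS array lay 0.41 above the highest Flox DSS array. The DSS difference was 4.93 ± 0.75 (SE) in Flox, a 30.4-fold change, and 6.56 ± 0.75 in GR iKO, a 94.6-fold change. GR iKO exceeded Flox on DSS by 1.92 ± 0.80, which was not called.

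Cxcl2 encodes a chemokine made chiefly by macrophages and other myeloid cells in damaged tissue. Its Flox water values were -6.95, -8.18, -7.83 and -7.90 and its GR iKO water values -8.17, -6.74, -8.20 and -7.46, none of them well above background. On DSS it reached -2.24, -3.35 and -4.30 in Flox and 0.75, -1.16 and 0.41 in GR iKO. All 3 GR iKO DSS arrays were brighter than all 3 Flox DSS arrays, by at least 1.08 on the log2 scale. DSS raised Cxcl2 at least 6.56-fold in Flox and at least 57.7-fold in GR iKO. On DSS the signal was 9.83-fold higher in GR iKO than in Flox, a difference of 3.30 ± 0.60 (SE) that was called.

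Cxcl3 is a close relative of Cxcl1 and Cxcl2, and whether its array feature also binds their RNA was not tested. No water array was well above background, with values from -8.71 to -7.77 in Flox and from -8.26 to -7.91 in GR iKO. The Flox DSS values were -3.00, -4.43 and -4.68, and those of GR iKO DSS were 1.63, -2.06 and -0.25. The GR iKO DSS arrays spread widely, with replicate 1 highest and replicate 3 lowest, but did not overlap Flox DSS. The DSS change was at least 3.92-fold in Flox and at least 49.3-fold in GR iKO. The genotype difference on DSS was the largest of the 8 members at 3.81 ± 0.71 (SE) and was called.

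Cxcl5 is best known as an epithelial chemokine. It was measurable on water, at -4.72, -4.08, -5.23 and -6.75 in Flox (the last not well above background) and -4.79, -4.28, -5.35 and -5.12 in GR iKO. On DSS the Flox arrays read 2.00, 0.23 and -0.11 and the GR iKO arrays 5.64, 1.79 and 2.08. Here the genotypes overlapped on DSS, since the lowest GR iKO array lay below the highest Flox array, and 1 GR iKO array stood far above the rest. Cxcl5 had the largest DSS difference of the members in both genotypes, 5.90 ± 0.88 (SE) or 59.7-fold in Flox and 8.06 ± 0.88 or 267-fold in GR iKO. Its genotype difference on DSS, 2.47 ± 0.95, was not called and came to 1.23 without GR iKO DSS replicate 1.

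Ppbp encodes platelet basic protein, whose cleaved form binds Cxcr2 and which is stored in platelets. It was well above background on no water array (-7.27 to -6.29 in Flox and -7.15 to -5.63 in GR iKO). On DSS it read -4.47, -4.71 and -5.24 in Flox and -3.31, -4.42 and -5.15 in GR iKO, with the last value of each group not well above background. The genotypes overlapped on DSS, and the lowest DSS array lay 1.05 above the highest water array in Flox and 0.48 above it in GR iKO. The bounds for the change came to 2.14-fold in Flox and 2.83-fold in GR iKO. They are not strict, since each DSS mean includes a value not well above background. The fitted differences, 1.76 and 2.32, were the smallest of the 8 genes. Between genotypes on DSS it differed by 0.51 ± 0.48 (SE), which was not called.

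Cxcr2 itself was read by a pair of features. The brighter one was well above background on no water array (-8.41 to -6.73 in Flox, -8.09 to -6.73 in GR iKO) and on every DSS array, at -2.46, -2.99 and -3.40 in Flox and -1.14, -2.09 and -1.73 in GR iKO. Every GR iKO DSS array exceeded every Flox DSS array, the closest pair by 0.36. The DSS change was at least 8.34-fold in Flox and at least 18.3-fold in GR iKO. GR iKO exceeded Flox on DSS by 1.30 ± 0.45 (SE), which was not called. The dimmer feature gave 0.93 ± 0.37 for the same difference with overlapping groups, and DSS changes of 2.44-fold in Flox and at least 4.16-fold in GR iKO. That Flox value is no strict bound, since a Flox DSS array was not well above background.

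Csf2, the gene of granulocyte-macrophage colony-stimulating factor, was printed on 10 spots per array, which were averaged. Its water values, from -8.29 to -7.45 in Flox and from -7.96 to -7.23 in GR iKO, were all below the mark for background. On DSS it read -4.50, -4.68 and -5.92 in Flox, the last not well above background, and -3.54, -3.71 and -3.42 in GR iKO. The GR iKO DSS arrays were tightly grouped (SD 0.15) and all above the Flox DSS arrays (SD 0.78). The DSS change was at least 4.90-fold in GR iKO. In Flox the same measure gave 1.96-fold, but a DSS value not well above background enters it, so it is no strict bound. Csf2 was 2.78-fold higher in GR iKO on DSS, a difference of 1.48 ± 0.34 (SE) that was called. That call ended with slide as a block, with the replicate block and with array quality weights, and under normexp background correction the difference was 0.12, a 1.08-fold change.

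Csf3, the gene of granulocyte colony-stimulating factor, was not well above background on water (-8.49 to -7.40 in Flox, -7.99 to -7.55 in GR iKO). It rose to -3.02, -4.05 and -3.93 in Flox DSS and to 0.78, -1.26 and -1.27 in GR iKO DSS. The gap between the genotypes on DSS was the widest of the 8 members, with 1.75 between the lowest GR iKO and the highest Flox array. The DSS change was at least 5.08-fold in Flox and at least 38.5-fold in GR iKO. The genotype difference on DSS was 3.08 ± 0.49 (SE), 8.45-fold, and was called.

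**Figure D2:**
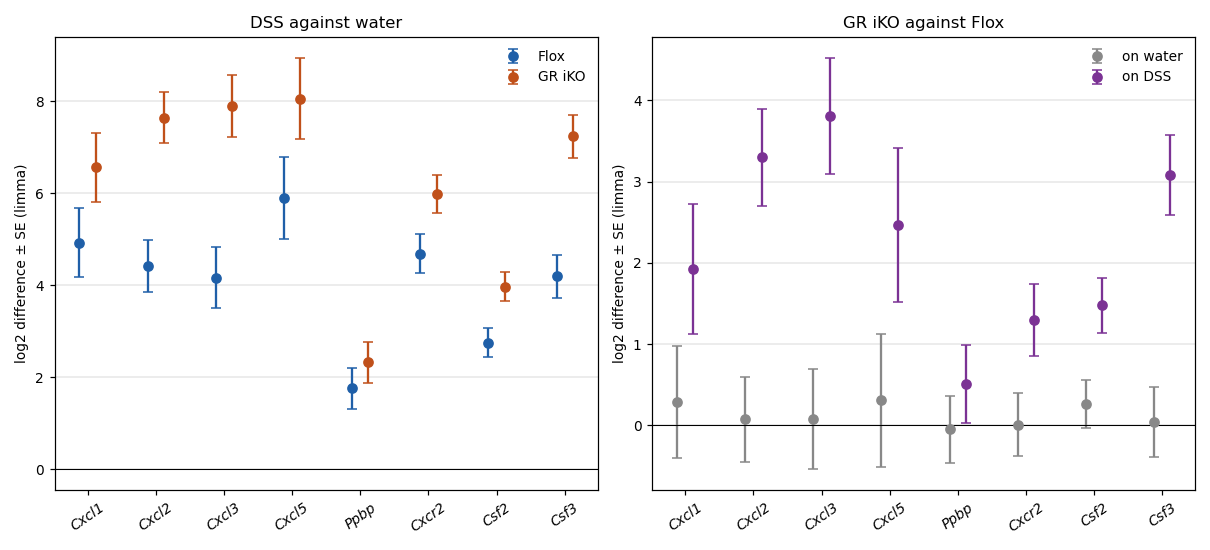
Fitted log2 differences with their SE for the 8 genes, for the DSS response of each genotype (left) and for the genotype difference under each treatment (right). For the 6 genes not measurable on water the left panel plots fitted values, which are not the lower bounds given in the text. On water all 8 genotype differences lie between -0.05 and 0.31, and on DSS they lie between 0.51 and 3.81.

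In the order of group means, GR iKO DSS was highest and Flox DSS next for all 8 genes, and the water groups came last and overlapped each other for every gene. Neighbours on DSS overlapped for Cxcl5 and Ppbp. All 8 members were called higher on DSS in Flox, where 27.4% of the 15540 genes tested were, and all 8 in GR iKO, where 24.5% were. All 8 had every DSS array above every water array in each genotype, against 29.1% of genes in Flox and 25.4% in GR iKO. Under normexp background correction all 8 were still called in each genotype, but the differences were smaller, from 0.94 to 3.99 in Flox and from 0.78 to 6.41 in GR iKO. Its folds lay under the stated bound for 5 of the 6 genes with one in Flox and for all 6 in GR iKO, with Cxcl2 at 2.97-fold and 14.4-fold and Csf3 at 2.51-fold and 9.22-fold. The median member difference was 4.31 in Flox and 6.90 in GR iKO, beside medians of -0.03 and 0.00026 over all genes. These counts come from contrasts known when the genes were chosen and from a filter that 6 members passed only through DSS, so nothing is read from them.

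Between the genotypes on DSS, 4 of 8 members were called higher in GR iKO (Cxcl2, Cxcl3, Csf2 and Csf3) against 6.4% of genes, and 6 of 8 had no overlap against 10.6%. The median member difference was 2.19 beside 0.000085 over all genes. That contrast too was known at the choice, and the shares are a description. The 4 calls rest on a spread estimated with the water arrays included. Under normexp background correction Cxcl2, Cxcl3 and Csf3 stayed called, with smaller differences of 2.17, 2.37 and 1.81. With the 6 DSS arrays fitted alone 0 of the 8 members and 0 features of the whole array were called, and with separate weights for water and DSS 0 members were called. Both Flox and GR iKO DSS arrays lay on slides 1 and 4, where 7 of 8 members on slide 1 and 8 of 8 on slide 4 were higher in GR iKO. The exception on slide 1 was Cxcl5, at -0.21. Flox DSS replicate 2 on slide 2 and GR iKO DSS replicate 1 on slide 3 had no DSS array of the other genotype beside them. The share of all genes higher in GR iKO on each slide was not counted, so these counts only describe the members.

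The size of the genotype difference on DSS varied between slides 1 and 4. Each of these slides held a single DSS array per genotype, so slide and sample cannot be told apart. Cxcl2 differed by 1.08 on slide 1 and by 4.72 on slide 4, Cxcl3 by 0.94 and 4.43, and Csf3 by 1.76 and 2.65. Csf2 differed by 0.78 and 2.50. The Flox array on slide 4 was Flox DSS replicate 4, the dimmest of the 14 arrays, with a 75th percentile of 262. It was the lowest Flox DSS array for 6 of the 8 members. On slide 1 the highest Flox DSS array for all 8 members, Flox DSS replicate 1, met GR iKO DSS replicate 3, which was the lowest of its group for 5 members. GR iKO DSS replicate 1 was the highest of all 14 arrays for 7 of the 8 members, and replicate 4 for Csf2.

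**Figure D3:**
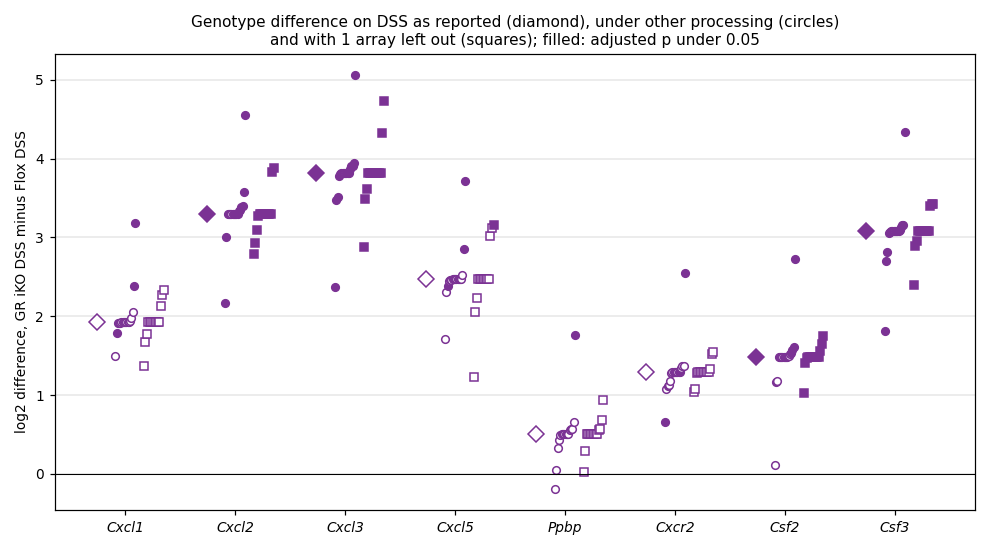
Log2 difference between GR iKO DSS and Flox DSS for each gene as reported (diamond), under the other processing settings (circles) and with 1 array left out at a time (squares). Filled symbols have an adjusted p under 0.05. Cxcl2, Cxcl3 and Csf3 stay at 1.81 or higher in every setting drawn, Csf2 falls to 0.12 under normexp background correction, and Ppbp is the only gene with a value below 0.

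Whether the DSS response itself differed between genotypes is the interaction of genotype and DSS. All 8 members had a larger DSS difference in GR iKO, by 0.56 for Ppbp to 3.74 ± 0.94 (SE) for Cxcl3, with Cxcl2 at 3.22 ± 0.79 and Csf3 at 3.04 ± 0.65. None of the 8 was called in limma, where 0.0644% of all genes were called higher. An unadjusted p under 0.05 (limma) was reached by 5 members. The share of all genes reaching that looser threshold was not counted, so nothing is read from the 5. For the 6 members that water arrays could not measure, this term compares fitted values near background. The members' interaction also shares its DSS arrays with the comparison above and adds no separate evidence.

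On plain water 0 of the 8 members were called, 0 had an unadjusted p under 0.05, and 0.00644% of all genes (1 gene) were called higher. Cxcl1 differed by 0.29 ± 0.69 (SE) and Cxcl5 by 0.31 ± 0.82, the only members that most water arrays measured. The other 6 were not well above background in either genotype, with fitted differences from -0.05 for Ppbp to 0.26 for Csf2, so a difference there was not detectable on these arrays. The 95% confidence interval of the log2 difference ran from -1.22 to 1.79 for Cxcl1 and from -1.47 to 2.09 for Cxcl5.

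The receptors of the colony-stimulating factors were read on separate features. Csf3r, the receptor of Csf3 on neutrophils, lay at -5.71 ± 0.49 (SD, n = 4) in Flox water and -5.57 ± 0.34 (n = 4) in GR iKO water, and at -2.70 ± 0.63 (n = 3) and -1.17 ± 0.70 (n = 3) on DSS. It was called higher on DSS in both genotypes, by 3.01 ± 0.37 (SE) and 4.41 ± 0.37, and higher in GR iKO on DSS by 1.53 ± 0.40. Csf2ra, the binding chain for Csf2, moved little, by -0.29 ± 0.13 in Flox (not called) and 0.42 ± 0.13 in GR iKO (called). On DSS Csf2ra was called higher in GR iKO by 0.90 ± 0.14. Cxcr4, which holds neutrophils in the bone marrow, was called 2.82-fold higher in GR iKO on DSS, although the groups overlapped.

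Csf2rb, the shared signalling chain, differed on its brightest feature by 1.62 ± 0.25 (SE) after DSS in Flox and by 3.01 ± 0.25 in GR iKO, each called, and it was also called higher in GR iKO on DSS, by 2.63-fold. Its features disagreed, since another gave 0.17 ± 0.16 in Flox and 0.34 ± 0.17 between genotypes on DSS, neither called. Csf2rb2, a nearly identical mouse copy, gave 1.62 ± 0.23, 2.80 ± 0.23 and 1.22 ± 0.25, so the RNA of this pair may not be separated. Ackr1, a decoy receptor of small veins that binds these chemokines without signalling, was called higher on DSS by 2.22 ± 0.25 in Flox and 2.18 ± 0.25 in GR iKO, with -0.19 ± 0.26 between genotypes on DSS. Cxcr1, a related chemokine receptor, was well above background on 1 of the 14 arrays (GR iKO DSS) and was not tested.

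Pf4 and Cxcl15 also lie on chromosome 5, near Cxcl1, Cxcl2 and Cxcl3. Pf4, a platelet and macrophage chemokine that does not use Cxcr2, lay at 2.59 ± 0.17 (SD, n = 4) and 2.28 ± 0.27 (n = 4) on water and at 2.88 ± 0.20 (n = 3) and 2.01 ± 0.83 (n = 3) on DSS in Flox and GR iKO. It was called in no comparison. Cxcl15, a lung chemokine, was well above background on no array. Among the 4 other chemokines tested, Cxcl12 and Cxcl16 were called higher on DSS, by 1.09 ± 0.28 (SE) and 0.85 ± 0.19 in Flox and 0.97 ± 0.28 and 1.85 ± 0.19 in GR iKO. Cxcl16 was also called higher in GR iKO on DSS, by 0.89 ± 0.21.

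Of the 15540 tested genes 27.4% were called higher and 26.9% lower on DSS in Flox, and 24.5% higher and 22.6% lower in GR iKO. In GR iKO against Flox on DSS 6.4% were called higher and 8.42% lower. Of 48 listed genes around the 8 members, in 5 lists, 43 were tested. On DSS 24 were called higher and 3 lower in Flox, and 32 higher and 3 lower in GR iKO, with median differences of 1.09 and 1.82. Between genotypes on DSS 18 were called higher in GR iKO and 0 lower, with a median of 0.81, and on water 0 were called. The interaction called 0 of the 43. These lists were drawn up with earlier results known. Their counts, here and list by list below, describe them beside the shares of all genes given above.

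Among the other neutrophil attractant receptors and enzymes, 5 of 8 were called higher and 1 lower on DSS in Flox, and 5 higher and 2 lower in GR iKO. Fpr2 and Fpr1, receptors for formylated bacterial peptides, were called higher in both genotypes but were well above background on only 1 or 2 of the 4 water arrays of each. With the dim water signals raised to the floor, Fpr2 was at least 19.3-fold and Fpr1 at least 16.8-fold higher on DSS in Flox, and at least 72.6-fold and 57.8-fold in GR iKO. Ltb4r1, the leukotriene B4 receptor, rose by 1.97 ± 0.31 and 2.93 ± 0.31. Lta4h, which makes leukotriene B4, fell by 1.04 in Flox and fell by 0.90 in GR iKO. Between genotypes on DSS 4 of the 8 were called higher, with Fpr2 at 2.00 ± 0.57, Ltb4r1 at 1.10 ± 0.33 and Ptafr, the platelet-activating factor receptor, at 1.05 ± 0.32.

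Among 12 upstream cytokines and receptors tested, 6 were called higher and 1 lower on DSS in Flox and 9 higher and 1 lower in GR iKO. Il1b, an inducer of neutrophil chemokines, rose by 5.49 ± 0.41 (SE) and 7.76 ± 0.41. Il22, an epithelial repair cytokine, was at least 4.57-fold higher on DSS in Flox, where 1 water array was measurable and the groups overlapped, and at least 51.2-fold higher in GR iKO. Il1a was at least 2.40-fold higher on DSS in Flox and at least 23.3-fold higher in GR iKO. Tnf rose by 2.80 ± 0.45 and 5.06 ± 0.45. Between genotypes on DSS 6 of 12 were called higher: Il17a, a T cell cytokine that promotes neutrophil recruitment, was at least 4.26-fold higher in GR iKO, Il1a higher by 3.44 ± 0.49 and Tnf by 2.34 ± 0.48. Il17a was well above background on all 3 GR iKO DSS arrays and on no other array.

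Of 13 regulators of transcription and mRNA decay, 7 were called higher and 1 lower on DSS in Flox and 10 higher and 0 lower in GR iKO. Cebpb and Cebpd, factors that act on acute phase genes, rose by 3.18 ± 0.18 (SE) and 2.73 ± 0.26 in Flox and by 3.29 ± 0.18 and 2.53 ± 0.26 in GR iKO. Nfkbia and Tnfaip3, feedback inhibitors of NF-kB, were the 2 called higher in GR iKO on DSS, by 0.72 ± 0.20 and 1.48 ± 0.22, and Nfkbia had the third largest rise of the list in GR iKO at 2.10 ± 0.18. Dusp1, a glucocorticoid-inducible phosphatase, rose by 1.52 ± 0.23 in Flox and 1.88 ± 0.23 in GR iKO, and differed by 0.32 ± 0.25 between genotypes on DSS, not called. Tsc22d3, a glucocorticoid-induced gene, was called in no comparison.

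**Figure D4:**
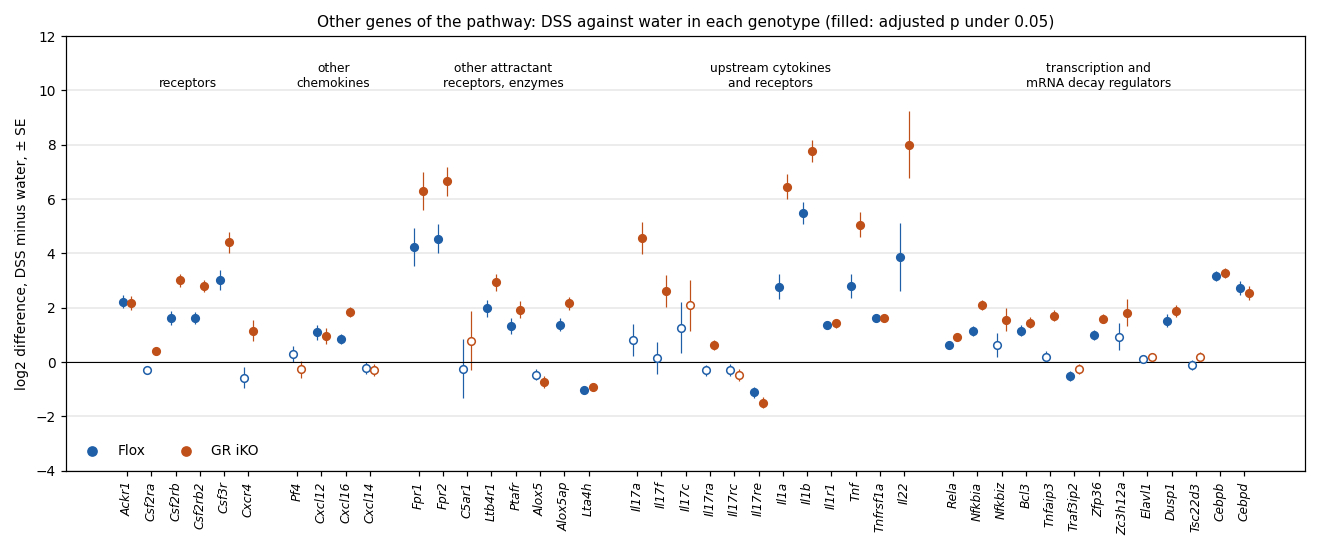
Log2 difference between DSS and water with its SE for the 43 tested genes around the 8 members, in Flox and GR iKO, ordered by list. Filled circles have an adjusted p under 0.05. Il1b (5.49 and 7.76), Fpr2, Fpr1 and Il22 stand highest in Flox, and with Il1a in GR iKO, and the points of genes not measurable on some or all water arrays are fitted values, not bounds.

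Neutrophil markers were read beside the members. Of 12 neutrophil genes tested, 10 were called higher on DSS in Flox and 12 in GR iKO, against 27.4% and 24.5% of all genes. Between genotypes on DSS 5 were called higher in GR iKO, against 6.4% of all genes, and 7 were not called. Among the 5 were Ltf, a granule protein, by 3.62 ± 0.58 (SE), Mmp8 by 3.07 ± 0.61 and S100a8 by 2.84 ± 0.72. Ly6g had no matched feature and Elane was below the filter. Ngp, an early granule protein, was well above background on all 3 GR iKO DSS arrays and no Flox DSS array. The summed log2 level of the list, the log2 of the added linear signals, ran from -0.83 to -0.04 on Flox water, 4.72 to 6.20 on Flox DSS, -0.86 to 0.23 on GR iKO water and 6.45 to 8.26 on GR iKO DSS. The DSS ranges did not overlap between genotypes. The part of cell numbers in the members' differences was not tested.

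Platelet markers, read because Ppbp is stored in platelets, were called higher for 4 of 7 genes and lower for 1 on DSS in Flox and higher for 5 and lower for 1 in GR iKO, and for 0 between genotypes on DSS. Their summed level was 2.54 to 2.88 on Flox water, 2.81 to 3.15 on Flox DSS, 2.16 to 2.71 on GR iKO water and 1.44 to 2.78 on GR iKO DSS. That sum is mostly Pf4, a gene of macrophages too, which alone ran from 1.07 to 2.69 on GR iKO DSS. The mean level of the 7 genes was higher on DSS, at -3.82 on Flox water, -2.92 on Flox DSS, -3.85 on GR iKO water and -3.08 on GR iKO DSS. Of 4 red blood cell genes 0 were called in any comparison, and the summed level ran from 1.48 to 6.13 over all arrays. Macrophage markers were called higher for 6 of 8 and lower for 1 on DSS in each genotype and for 0 between genotypes on DSS, with summed levels of 4.70 to 5.77 on Flox DSS and 5.09 to 5.75 on GR iKO DSS. None of 5 T cell genes was called. Among all genes 27.4% were called higher and 26.9% lower on DSS in Flox, and 24.5% higher and 22.6% lower in GR iKO. Between genotypes on DSS the shares were 6.4% higher and 8.42% lower in GR iKO.

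Fibroblast markers were called higher for 6 of 6 on DSS in both genotypes and for 0 between genotypes on DSS. Smooth muscle markers were called higher for 5 of 5 on DSS in Flox and for 0 in GR iKO, and all 5 were called lower in GR iKO on DSS. Among all genes 27.4% were called higher and 26.9% lower on DSS in Flox, and 24.5% higher and 22.6% lower in GR iKO. Between genotypes on DSS 6.4% were called higher and 8.42% lower in GR iKO. The smooth muscle list had summed levels of 9.96 to 10.8 on Flox DSS and 8.41 to 9.64 on GR iKO DSS. Of 10 epithelial genes 1 was called higher and 4 lower on DSS in Flox and 2 higher and 0 lower in GR iKO, and 4 were called higher in GR iKO on DSS. Their summed level was 9.71 to 10.3 on Flox DSS and 10.2 to 10.7 on GR iKO DSS. Of 6 genes of mature colon epithelium 2 were called lower on DSS in each genotype and 0 differed between genotypes on DSS. The part of these shifts in tissue make-up in the members' differences was not tested.

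The genes whose profile over the 14 arrays was most like each member were found by Pearson's correlation among genes well above background on at least 10 arrays. The points share 4 groups and 1 scaling, and values near background on water enter them, so the correlations describe a common order of arrays. Cxcl1 was closest to Tmem245 (r = 0.981), Klf10 and Pfkfb3, and Cxcl2 to Tnfaip2 (0.990), Cd300lf and Tnfrsf1b. Cxcl3 was closest to Mefv, the pyrin gene (0.994), Slc15a3 and Bcl2a1b. Cxcl5 was closest to Prss27, a serine protease (0.989), Acsl4 and Plaur. Ppbp had the lowest leading value, with Msantd3 (0.953), Adarb1 and Arf2. Cxcr2 was closest to Fas (0.988), Cp and Dse, Csf2 to Xdh (0.991), Csf3r and Bcl2l1, and Csf3 to Lilra6 (0.992), Csf2rb and Znrf1.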

How the data were processed

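Total RNA of 14 mouse colon samples was labelled with Cy3, hybridised to one-colour Agilent 44K arrays on 4 slides and extracted with Agilent Feature Extraction 12.0.0.7 (per the file headers). Partek 6.6 is named in the submitters' processing notes without a role. The deposited scanner files give background-corrected intensity per spot. The deposited value table holds the authors' log2 values, scaled in a way that no source used here states, and served as an alternative.

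Outlier spots were left out, spots of a feature averaged, and log2 intensity reduced by each array's 75th percentile. Of 41174 features, 29523 were well above background on at least 3 arrays and were tested in limma 3.58.1 (R 4.3.3), with 1 mean per group and Benjamini-Hochberg adjustment over these features. The fit was run on simulated normal data with the same spread of a feature in all groups. That setting could not show what a spread differing between water and DSS does to the calls. A gene is represented by its feature with the highest mean level. Names came from transcript accessions matched to RefSeq (28223 features). The number of arrays limits the precision.

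The members and gene lists were chosen with earlier results of these data known. Named genes were the 8 members, their receptors and neighbours, up to 3 called genes of each other list with the largest differences, and the 3 genes most alike. Marker genes and Tsc22d3 were named after their values were seen. Alternatives were other scalings, normexp with an offset of 50 (on median signals, in place of the planned means), filters, weights, slide and replicate blocks, and leaving out each array.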

Additional observations from a re-analysis of the deposited data

Results flagged for a closer look

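In groups of 4 arrays, 1 array stood apart from the other 3 by Dixon's test at the 95% level in 2 of 18 member feature groups tested, and chance alone flags about 1 in 20. Ppbp on Flox water replicate 3 was -7.27 (log2 level), with the other arrays between -6.42 and -6.29. The dimmer Cxcr2 feature on GR iKO water replicate 2 was -7.80, with the other arrays between -8.14 and -8.09. In both groups 0 arrays were well above background, so these values carry no order.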

How the results depend on the processing

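On water 0 of 8 members were called under every alternative, and on DSS 6 to 8 were called higher in Flox and 7 or 8 in GR iKO, since the stricter filter dropped Ppbp from the test and spike-in scaling left Ppbp and Csf2 not called in Flox. For GR iKO against Flox on DSS, 4 members were called and 3 to 6 under most alternatives, but 8 under spike-in scaling, 0 with separate weights for water and DSS, and 0 in the arrays of the compared groups alone. Spike-in scaling called 22027 of the 29523 tested features in this comparison, 99.8% of them higher, against 3903 called as reported. The 8 calls under that scaling thus do not set the members apart from most features. The interaction, called for 0 members, was called for 1 under quantile normalization, 1 in the deposited value table (Csf3 in both), 2 with array quality weights, 8 under spike-in scaling and 0 to 3 with 1 array left out, the most without GR iKO DSS replicate 3 (Cxcl2, Cxcl3 and Csf3). Without Flox DSS replicate 4 or GR iKO DSS replicate 4 it was 1 (Csf3). Over the whole array the interaction called 33 features as reported, 172 under quantile normalization and 142 in the deposited value table. It called 2065 with array quality weights and 18388 under spike-in scaling, 99.96% of the latter higher. Without GR iKO DSS replicate 3, Flox DSS replicate 4 or GR iKO DSS replicate 4 it called 2057, 2221 and 324. The members' calls thus came where calls rose over the whole array. The cause of these changes was not tested.

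Spike-in scaling moved the median of all features by -2.38 (DSS in Flox), -0.973 (DSS in GR iKO), 1.25 (genotype on DSS) and 1.41 (interaction). Relative to the medians under that scaling the members differed by 1.85 to 5.99, 2.35 to 8.08, 0.48 to 3.78 and 0.53 to 3.71. The reported scaling gives the same values to 2 decimals against its own medians. That follows from arithmetic, since each scaling subtracts 1 value per array and so shifts all features together, and it supports nothing. Unadjusted for that shift, Ppbp changed sign on DSS in Flox, to -0.62, and Csf2 was 0.37 there against 2.75 (adjusted p = 0.461). Of the 4 called genotype differences on DSS, Csf2 was 0.12 under normexp, 1.17 with array quality weights and 1.52 with slide as a block, none called. Normexp also lowered the members' DSS differences, to 0.94 to 3.99 in Flox and 0.78 to 6.41 in GR iKO, all called. Features called moved with the weights: 3903 on DSS between genotypes against 6 with separate weights, and 33 for the interaction against 2065 with array quality weights.

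Same-numbered samples deviated together in only part of the pairs (correlations from -0.227 to 0.31, 9 of 18 over 0.1), so the numbers were not taken as pairs. A replicate block called 5 members between genotypes on DSS (Cxcl1, Cxcl2, Cxcl3, Cxcl5 and Csf3), with Csf2 at 1.49 not called, and 0 on water and for the interaction. Signal near background limits every value of the 6 genes not measured on water.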
